A study of Mus musculus with 30 samples.

Results

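The 9 genes of cholesterol sensing and export described here were followed through bone marrow (BM) and adipose tissue macrophages (ATMs) of mice from a transplantation study of *Shp2*-mutant blood cells. They are 5 nuclear receptors (*Nr1h2*, *Nr1h3*, *Pparg*, *Ppard* and *Rxra*) and 4 genes of lipid export and uptake (*Abca1*, *Abcg1*, *Mylip* and *Apoe*). The genes were chosen by symbol, and all 9 were measured in both tissues, among 13353 genes in BM and 17059 genes in ATMs. RNA-seq libraries came from whole BM cells and from F4/80+ cells sorted from visceral adipose tissue, with 15 libraries per tissue, 3 for each of 5 groups.

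The groups come from 1 transplantation design. BM cells of Shp2E76K/+;LysM-Cre+ mice, in which Cre is driven by the lysozyme M promoter of myeloid cells, were mixed with an equal number of cells from Boy/J competitor mice. The mixture was given to recipients irradiated with 700 and then 400 cGy, so each library can hold mutant cells, competitor cells and remaining host cells. The WT group are described as recipients without the leptin mutation, and the labels list no treatment for them. The other 4 groups are leptin-deficient *Ob/Ob* recipients treated for 30 days from 8 weeks after transplantation. They received vehicle (Vehicle), the glucagon-like peptide 1 receptor agonist beinaglutide at 3 mg/kg (the group called GLP-1R agonist), 200 μg per mouse of an antibody to the cytokine IL-17A 3 times weekly (anti–IL-17A), or both agents (Combo). Mice were 12 to 14 weeks old and of both sexes according to the labels, all on C57BL/6J. By the recipients' age at transplantation in the study's methods, sampling came later than this age. The labels name 3 mice per group but give no donor for single libraries. For ATMs, a figure legend of the study sets *Ob/Ob* recipients of mutant cells against those of WT cells. Another legend names WT recipients of mutant cells. Which recipients and donor cells the WT libraries of ATMs came from could therefore not be settled here. As described, Vehicle and WT also differ in leptin, so obesity, leptin deficiency and vehicle treatment cannot be told apart, nor in ATMs a possible difference in donor genotype.

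*Nr1h3* and *Nr1h2* encode the liver X receptors LXRα and LXRβ, which bind oxysterols, and *Pparg* and *Ppard* encode the fatty acid sensors PPARγ and PPARδ. Each of them binds DNA as a heterodimer with a retinoid X receptor, such as RXRα, the product of *Rxra*. In macrophages, ligand-bound LXR raises transcription of *Abca1* and *Abcg1*, which move cholesterol onto apolipoprotein A-I and high-density lipoprotein, of *Apoe*, whose secreted product carries cholesterol away from the cell, and of *Mylip*, which encodes the ubiquitin ligase IDOL, which limits sterol uptake. PPARγ also promotes *Nr1h3* transcription in macrophages, and adipose tissue macrophages are known for high PPARγ.

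The members lie on 6 chromosomes of GRCm38 (GENCODE M21). *Nr1h2* spans chr7:44549616-44553951 on the minus strand, *Nr1h3* chr2:91184061-91202834 on the minus strand, *Pparg* chr6:115360951-115490399 on the plus strand, *Ppard* chr17:28232700-28301474 on the plus strand and *Rxra* chr2:27676440-27762957 on the plus strand. *Abca1* spans chr4:53030787-53159895 on the minus strand, *Abcg1* chr17:31057675-31117988 on the plus strand, *Mylip* chr13:45389742-45412022 on the plus strand and *Apoe* chr7:19696109-19699188 on the minus strand. All are protein coding, and counts are over their exons. Only *Nr1h3* shares exon sequence with another gene, 1.35% of its exon bases with *Gm13783* on the same strand, so its counts can hold a few reads of that gene.

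LXR and PPAR heterodimers recognize direct repeats of the word AGGTCA, with a gap of 4 letters (DR4) for LXR and of 1 letter (DR1) for PPAR. Promoter windows of RefSeq (GRCm38.p6, 250 bases before to 50 after a start) were found for 8 of the 9 genes, 14 windows in all. Both strands were searched for repeats with at most 2 mismatches in their 12 letters. Such a DR4 was in 3.02% and such a DR1 in 3.86% of all 32851 windows, and the 1 match among the members was a DR1 in the second window of *Rxra*. With 3 mismatches, a limit chosen after the first search, 21.9% of all windows held a DR4 and 24.6% a DR1, and matches were then found in windows of 4 members, *Rxra*, *Abca1*, *Pparg* and *Apoe*. The window of *Abca1* is shown because a DR4 there is a known LXR element, and that of *Rxra* because it holds the closest match. Capitals mark the repeat. In *Abca1* its first printed base lies 67 bases before the start (9 of 12 letters, matched on the opposite strand). In *Rxra* it lies 75 bases before the start (10 of 12 letters).
*Abca1* promoter, chr4:53159846-53160145, minus strand: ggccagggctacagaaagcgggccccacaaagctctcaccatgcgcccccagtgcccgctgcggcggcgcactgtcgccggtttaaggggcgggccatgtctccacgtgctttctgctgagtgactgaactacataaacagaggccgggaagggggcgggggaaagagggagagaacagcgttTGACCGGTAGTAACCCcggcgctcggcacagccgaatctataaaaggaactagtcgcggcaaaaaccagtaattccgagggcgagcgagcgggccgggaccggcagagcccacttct
*Rxra* promoter, chr2:27709042-27709341, plus strand: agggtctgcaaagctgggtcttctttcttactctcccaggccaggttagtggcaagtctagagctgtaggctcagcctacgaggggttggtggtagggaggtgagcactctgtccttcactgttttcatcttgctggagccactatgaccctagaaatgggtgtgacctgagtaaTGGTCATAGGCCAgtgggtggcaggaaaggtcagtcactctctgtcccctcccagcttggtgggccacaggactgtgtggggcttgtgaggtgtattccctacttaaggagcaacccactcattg
These matches describe letters in the windows and were not tested for binding.

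Libraries held 31086184 to 39925495 gene counts (BM) and 24876074 to 45300263 gene counts (ATMs). Beyond counting error, libraries of a group varied by 3.51% (BM) and 32.5% (ATMs), as a coefficient of variation. The BM libraries were so alike that whether they came from separate mice, pools or repeated preparations could not be told from the data, so SE, p and n = 3 in BM describe the spread between libraries. In ATMs highly counted genes were also close, with *Apoe* at 30472, 29773 and 30270 normalized counts in Vehicle. SE, p and n = 3 in ATMs are therefore read in the same way. In BM, 52.5% to 76.6% of all genes passed a false discovery rate (FDR) of 0.05 in the 7 comparisons made, and a gene was called changed only when its log2 fold change was also beyond 1. Libraries of the 2 groups compared did not overlap for 61% to 76% of all genes in BM and 43.4% to 62.9% in ATMs. Lack of overlap was thus common. The median log2 fold change of all genes was within 0.03 of 0 in BM, and in ATMs it was -0.21 for Vehicle vs WT, 0.19 for GLP-1R agonist vs Vehicle, 0.17 for anti–IL-17A vs Vehicle and 0 for Combo vs Vehicle. In bulk RNA, fewer cells of a type and less RNA per cell cannot be told apart, and marker lists differed between groups in both tissues (10 lists of 6 to 10 genes). In ATMs the summed normalized counts of 10 macrophage markers were 156364 to 164206 in WT, 111551 to 119599 in Vehicle, 375682 to 392195 with the GLP-1R agonist, 543015 to 549804 with anti–IL-17A and 389199 to 391614 in Combo. *Csf1r*, the receptor of macrophage colony-stimulating factor, averaged 18150 in WT, 1579 in Vehicle and 22367 in Combo, while *Cd14* of the same list averaged 7708, 27426 and 20287. The 9 measured neutrophil markers summed to 715739 to 758119 in Vehicle and 416608 to 427914 in Combo, against 6461 to 14522 across the other 3 groups. *Ly6g*, a defining neutrophil marker, was not analysed here. Endothelial markers were highest in Vehicle (49619 to 54315, against 15487 to 23618 elsewhere) and fibroblast markers lowest there (192682 to 206288, against 433552 to 800549). Pancreatic acinar markers reached 40993 to 42056 in Combo against at most 916 elsewhere, and epididymis markers 115135 to 119681 in WT against at most 8553 elsewhere. The 4 measured erythroid markers summed to 222681 to 225806 in Vehicle, 179973 to 185034 in Combo and 38302 to 39110 with anti–IL-17A. T cell markers summed to 3410 to 3970 in Vehicle and 29425 to 29785 in Combo. In BM the macrophage list, of which *Lyz2* made up most, summed to 460029 to 470084 in WT, 151134 to 152550 in Vehicle, 124255 to 125048 with the GLP-1R agonist, 230002 to 231952 with anti–IL-17A and 228069 to 231785 in Combo. The other genes of that list did not all follow the sum. In Combo vs Vehicle 6 of its 10 genes fell and 0 rose (median -1.55), with *C1qb* at 604 against 3569 and *Fcgr1* at 409 against 7600, and in Vehicle vs WT 3 rose and 1 fell, with *Cd14* at 5539 against 364. B cell markers in BM summed to 44456 to 45082 in WT, 13232 to 13953 in Vehicle and 4326 to 4452 in Combo. Erythroid markers in BM were highest with the GLP-1R agonist (71869 to 73522, against 22971 to 47903 elsewhere). *Xist*, transcribed from the inactive X chromosome of female cells, also moved with the groups. Its normalized counts were 6339 to 6712 in Vehicle, 3528 to 3657 in Combo and at most 113 in the other groups of BM, and 998 to 1533 in Vehicle, 1041 to 1264 in Combo and at most 40.6 in the other groups of ATMs. The part of these differences in the results given here was not tested, and sex of the cells and group cannot be told apart.

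**Figure D1:**
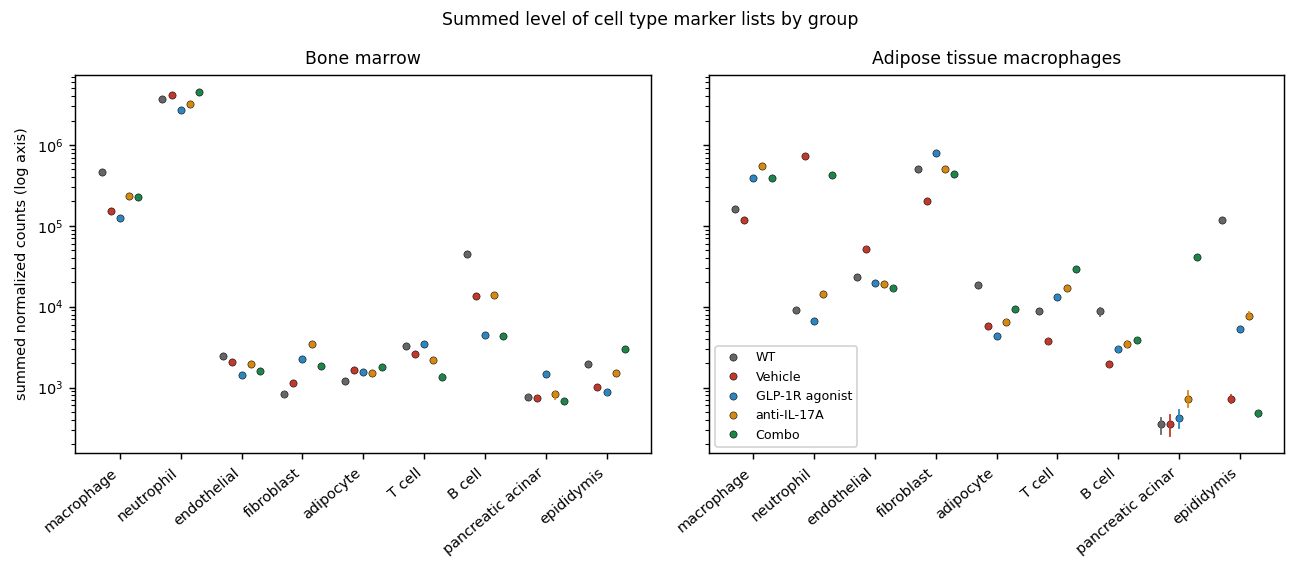
Summed normalized counts of 9 cell type marker lists (log axis) in BM (left) and ATMs (right), with points for group means and lines from the lowest to the highest of 3 libraries. In ATMs, Vehicle held the lowest macrophage sum and the highest neutrophil sum, 715739 to 758119.

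Per exon length, *Apoe* was the most expressed member and *Ppard*, *Nr1h3*, *Pparg* and *Abca1* were low in BM. RPKM (reads per kilobase of exon, scaled to library size) of WT BM averaged 152 for *Apoe*, 20.8 for *Nr1h2*, 17.9 for *Mylip*, 5.22 for *Abcg1*, 3.30 for *Rxra*, 2.94 for *Nr1h3*, 2.14 for *Pparg*, 2.10 for *Ppard* and 1.52 for *Abca1*. In WT ATMs the RPKM averaged 1224 for *Apoe*, 23.6 for *Mylip*, 21.1 for *Nr1h2*, 12.7 for *Pparg*, 11.7 for *Abca1*, 11.3 for *Nr1h3*, 5.66 for *Abcg1*, 3.43 for *Rxra* and 0.347 for *Ppard*. *Pparg*, *Nr1h3* and *Abca1* thus stood higher in ATMs than in BM on this scale and *Ppard* lower. The tissues were prepared differently, and these levels were not tested against each other.

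In BM, *Ob/Ob* recipients given vehicle had less *Pparg* and more *Ppard* than WT recipients, in a comparison of recipients with and without leptin deficiency. Of the 9 members, 2 were called by edgeR's quasi-likelihood test, 1 higher and 1 lower, against 19.5% of all genes. *Pparg* counts, normalized for library size, were 205, 222 and 233 in WT and 65.8, 41.9 and 58.8 in Vehicle. The groups did not overlap, as for 75.8% of all genes, and *Pparg* fell 3.97-fold (log2 fold change -1.99, SE 0.17, adjusted p = 1.01e-13). *Ppard* stood at 442, 631 and 573 in WT and at 1065, 1187 and 1146 in Vehicle, all Vehicle libraries above all WT libraries. It rose 2.07-fold (log2 fold change 1.05, SE 0.08, adjusted p = 1.22e-13), and without WT replicate 1, the lowest library, the log2 fold change was 0.91 and *Ppard* was no longer called. The 2 PPAR genes thus moved in opposite directions.

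The LXR genes and the transporters changed less in BM of Vehicle recipients. *Nr1h3* did not separate the groups, at 272, 240 and 259 in WT and 263, 309 and 214 in Vehicle (log2 fold change 0.03, SE 0.13, adjusted p = 0.84). *Nr1h2* was 1.55-fold higher, at 2372, 2492 and 2431 in WT and 3707, 3799 and 3768 in Vehicle. *Abca1* was 1.54-fold higher (616, 525 and 505 against 835, 963 and 749), and *Abcg1* was 1.66-fold higher (1349, 1283 and 1347 against 2119, 2178 and 2302). *Mylip*, *Apoe* and *Rxra* were lower, with log2 fold changes of -0.67, -0.36 and -0.41. These 6 genes passed the FDR in edgeR without reaching the fold limit, as 76.6% of all genes passed it.

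*Nr1h3* fell in BM of all 3 treated groups of *Ob/Ob* recipients, and the level was lowest with both agents. Vehicle libraries held 263, 309 and 214 normalized counts, GLP-1R agonist libraries 74.1, 73.6 and 104, anti–IL-17A libraries 90.3, 80.0 and 71.6, and Combo libraries 48.4, 49.8 and 52.2. Every treated library lay below every Vehicle library, the 2 single agents overlapped, and Combo lay below both. Against Vehicle, *Nr1h3* fell 3.15-fold with the GLP-1R agonist (log2 fold change -1.65, SE 0.15, adjusted p = 4.4e-13 in edgeR), 3.26-fold with anti–IL-17A (-1.71, SE 0.15, adjusted p = 2.04e-13) and 5.23-fold in Combo (-2.39, SE 0.16, adjusted p = 1.41e-16). These comparisons share the 3 Vehicle libraries. Combo was lower than each single agent by less than the fold limit, with log2 fold changes of -0.73 (SE 0.19, adjusted p = 0.000632) against the agonist and -0.68 (SE 0.19, adjusted p = 0.00232) against the antibody.

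*Abca1* and *Abcg1*, the cholesterol exporters, were also lowest in Combo BM. *Abca1* stood at 835, 963 and 749 normalized counts in Vehicle, 555, 651 and 624 with the GLP-1R agonist, 442, 441 and 432 with anti–IL-17A and 211, 219 and 239 in Combo. The 4 groups did not overlap, and WT (616, 525 and 505) overlapped the agonist group alone. *Abca1* fell 3.81-fold in Combo vs Vehicle (log2 fold change -1.93, SE 0.09, adjusted p = 1.69e-20 in edgeR), while the single agents gave -0.48 (SE 0.08) and -0.96 (SE 0.08), short of the fold limit, although the antibody gave -1.04, past it, without Vehicle replicate 3. Combo was also 2.74-fold below the agonist (log2 fold change -1.45, SE 0.09, adjusted p = 2.3e-16). Against anti–IL-17A the *Abca1* difference was -0.97 (SE 0.10, adjusted p = 1.01e-10), just inside the limit, and it was -1.01 and called when only the 6 libraries of these groups were fitted or without Vehicle replicate 3, and -1.03 without Combo replicate 3. *Abcg1* counts were 2119, 2178 and 2302 in Vehicle, 1257, 1202 and 1155 with the agonist, 1008, 1064 and 1095 with the antibody and 852, 816 and 875 in Combo. Again no groups overlapped, and *Abcg1* fell 2.08-fold with the antibody (log2 fold change -1.06, SE 0.05, adjusted p = 4.54e-22) and 2.59-fold in Combo (-1.37, SE 0.05, adjusted p = 1.53e-25). Treated groups did not overlap Vehicle for 75.5% to 76% of all genes. With the agonist the *Abcg1* log2 fold change was -0.87 (SE 0.05). In the same Combo vs Vehicle comparison 6 of 10 macrophage markers fell. Among other lists, 5 of 9 neutrophil markers rose and 0 fell (median 1.06). B cell markers fell for 7 of 8 genes (median -1.63) and T cell markers for 3 of 7 (median -0.98). The part of these markers in the lower *Nr1h3*, *Abca1* and *Abcg1* was not tested.

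*Pparg* moved the other way with each single agent in BM. It stood at 142, 124 and 168 normalized counts with the GLP-1R agonist and at 143, 121 and 154 with anti–IL-17A, above the 65.8, 41.9 and 58.8 of Vehicle and below WT. It rose 2.60-fold with the agonist (log2 fold change 1.38, SE 0.18, adjusted p = 5.94e-09 in edgeR) and 2.52-fold with the antibody (1.33, SE 0.18, adjusted p = 1.27e-08). In Combo the *Pparg* libraries (79.2, 62.5 and 90.8) overlapped Vehicle, with a log2 fold change of 0.49 (SE 0.20, adjusted p = 0.024) whose adjusted p was 0.176 without Vehicle replicate 2, 0.0539 without Combo replicate 1 and 0.137 without Combo replicate 3. *Pparg* counts in BM were low, so a few reads weigh on each value.

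*Apoe* showed no common direction across the treatments in BM. Its normalized counts were 8549, 9084 and 8913 in Vehicle, 15175, 14988 and 14638 with the GLP-1R agonist, 9275, 9599 and 9327 with anti–IL-17A and 5363, 5516 and 5704 in Combo. No 2 of these groups overlapped: *Apoe* was highest with the agonist and lowest with both agents. Treated groups lay apart from Vehicle for 75.5% to 76% of all genes. Against Vehicle the *Apoe* log2 fold changes were 0.76 (SE 0.03), 0.09 (SE 0.03) and -0.68 (SE 0.03), all short of the fold limit. The difference between Combo and the agonist was larger, 2.7-fold lower (log2 fold change -1.43, SE 0.03, adjusted p = 2e-34 in edgeR).

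*Ppard*, *Nr1h2*, *Rxra* and *Mylip* differed by less than the fold limit between treated and Vehicle BM. *Ppard* was lower in each treated group, with log2 fold changes of -0.83 (agonist), -0.65 (antibody) and -0.30 (Combo), and *Nr1h2* likewise, with -0.52, -0.23 and -0.15. *Rxra*, the shared partner, stayed within a narrow range, with group means of 473 in Vehicle and 593 to 631 in the other 4 groups, which overlapped one another. *Mylip* log2 fold changes against Vehicle were 0.33, -0.02 and -0.47. In BM, 2 of 9 members were called for the agonist (16.7% of all genes), 3 for the antibody (16.1%) and 3, all lower, for Combo (17.7%, and 11.1% lower). The members' median log2 fold change was -0.48, -0.23 and -0.47 in these comparisons, beside medians of 0.01, 0.01 and 0.02 over all genes.

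**Figure D2:**
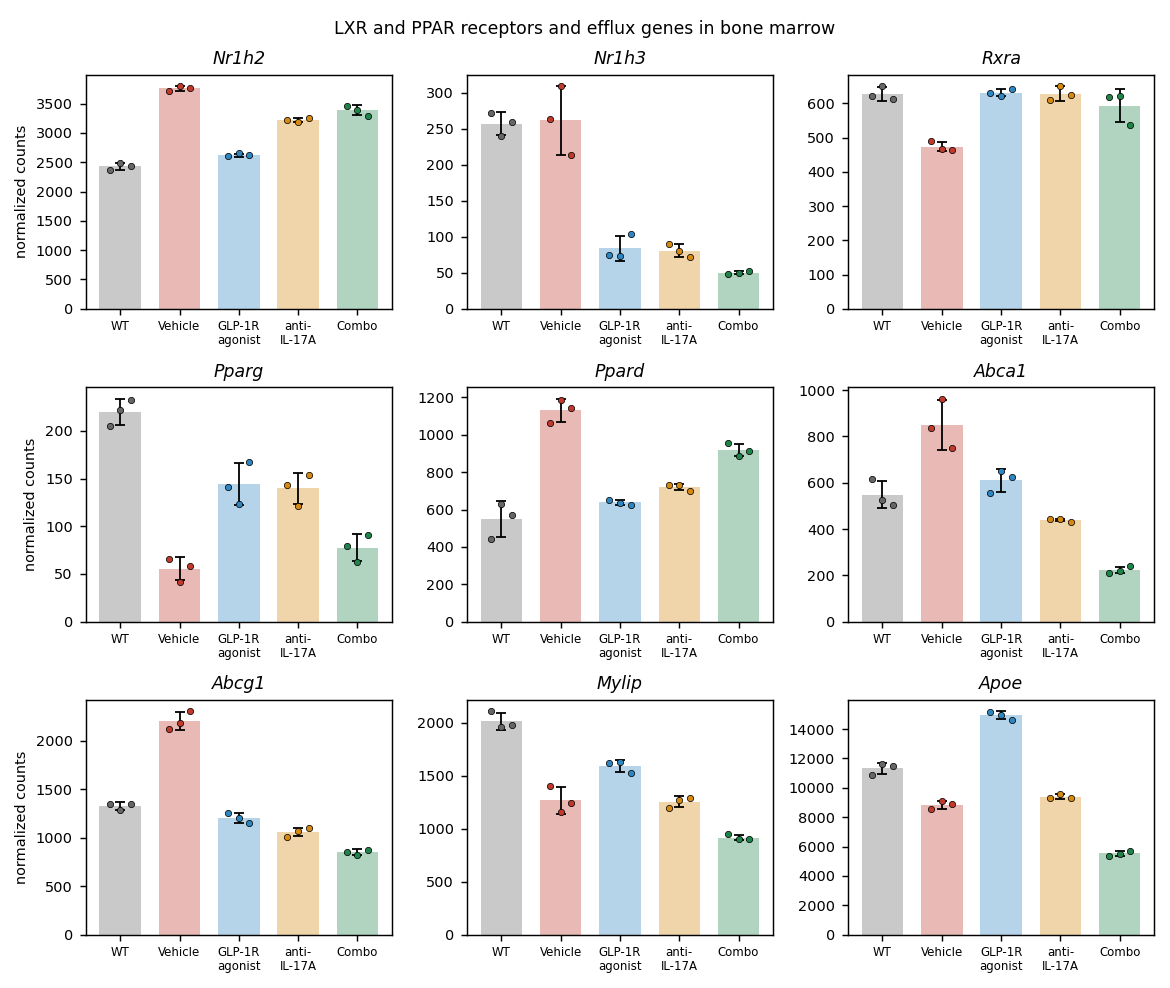
Normalized counts of the 9 members in BM libraries by group, with bars for means, error bars for SD (n = 3) and points for libraries. *Nr1h3*, *Abca1* and *Abcg1* are lowest in Combo, where *Nr1h3* stands at 48.4 to 52.2, while *Apoe* is highest with the GLP-1R agonist.

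*Nr1h3*, *Pparg*, *Abca1*, *Mylip* and *Apoe* were all lower in Combo BM than in WT BM. These 5 of 9 members were called, where 14.3% of all genes were called and 9.93% lower. *Nr1h3* was 5.13-fold below WT (log2 fold change -2.36, SE 0.16, adjusted p = 1.58e-16 in edgeR), *Pparg* 2.83-fold (-1.5, SE 0.16, adjusted p = 3.43e-11) and *Abca1* 2.47-fold (-1.30, SE 0.10, adjusted p = 6.45e-15). *Mylip*, at 2108, 1964 and 1978 in WT and 945, 899 and 905 in Combo, was 2.20-fold lower (-1.14, SE 0.05, adjusted p = 2.37e-21). *Apoe*, at 10895, 11603 and 11478 in WT, was 2.05-fold lower (-1.03, SE 0.03, adjusted p = 9.78e-30). *Nr1h2* and *Ppard* were above WT, with log2 fold changes of 0.48 and 0.75. All 8 B cell markers (median -3.30), 5 of 7 T cell markers (median -1.19) and 4 of 10 macrophage markers (median -0.80) fell in this comparison and 1 macrophage marker rose, and their part was not tested. Set against the single agents, Combo had 2 called members relative to the agonist (*Abca1* and *Apoe*, both lower, where 13.2% of all genes were called and 8.57% lower) and 0 relative to the antibody (5.67%), where DESeq2 also called 0. Relative to the antibody edgeR gave 8 members at an unadjusted p below 0.05, and 7 passed the FDR without the fold limit, which 52.5% of all genes passed.

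In ATMs, Vehicle recipients had more *Pparg* and *Ppard* and less *Apoe* than WT recipients. Of the 9 members, 3 were called, 2 higher and 1 lower, against 35.4% of all genes in a tissue where the cell type markers differed widely. *Pparg* stood at 1367, 1048 and 1328 normalized counts in WT and 3321, 4298 and 4236 in Vehicle, and rose 3.17-fold (log2 fold change 1.66, SE 0.15, adjusted p = 9.42e-08 in edgeR). *Ppard* was low in all groups, at 89.3, 74.7 and 95.9 in WT and 287, 267 and 219 in Vehicle, and rose 2.97-fold (1.57, SE 0.36, adjusted p = 0.00165). *Apoe*, among the most counted transcripts, stood at 85308, 87403 and 87750 in WT and 30472, 29773 and 30270 in Vehicle, and fell 2.88-fold (-1.52, SE 0.03, adjusted p = 5.51e-16). None of these 3 genes overlapped between the groups, as for 62.9% of all genes. The macrophage marker sum was 1.38-fold lower in Vehicle, but the list was split, as 4 of its 10 genes fell and 3 rose (median -0.74). *Csf1r* was 11.5-fold lower, while *Cd68* averaged 17462 against 8681, *Fcgr1* 5437 against 414 and *Cd14* 27426 against 7708. Neutrophil markers were 80.9-fold higher by their sum.

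*Nr1h2*, *Nr1h3* and *Abcg1* were higher in Vehicle ATMs without reaching the fold limit. *Nr1h3* stood at 892, 798 and 1143 in WT and 1770, 1774 and 1624 in Vehicle (log2 fold change 0.87, SE 0.14, adjusted p = 9.67e-05 in edgeR), and at 1.03 it was called without WT replicate 3. *Nr1h2* gave 0.65 (SE 0.08) and *Abcg1* 0.79 (SE 0.08). *Abca1*, *Mylip* and *Rxra* overlapped between WT and Vehicle, with log2 fold changes of -0.16 (SE 0.12), -0.13 (SE 0.17) and -0.34 (SE 0.25). Vehicle replicate 2 held 4629 *Abca1* counts against 3121 and 3020 in the others, and without it *Abca1* differed by -0.38 with an adjusted p of 0.000454.

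*Apoe* rose in ATMs of every treated group. Vehicle libraries held 30472, 29773 and 30270 normalized counts, GLP-1R agonist libraries 192120, 198920 and 187469, anti–IL-17A libraries 193513, 189434 and 181839, and Combo libraries 109647, 106912 and 111463. The single agents overlapped, Combo lay below them and above WT, and Vehicle lay below all. Against Vehicle the rise was 6.39-fold for the agonist (log2 fold change 2.68, SE 0.03, adjusted p = 2.74e-18 in edgeR), 6.24-fold for the antibody (2.64, SE 0.03, adjusted p = 3.25e-18) and 3.62-fold for Combo (1.86, SE 0.03, adjusted p = 1.45e-16). Summed macrophage markers were higher than Vehicle in the same 3 groups, 3.30-fold, 4.67-fold and 3.34-fold by group mean. *Lyz2* was the largest term of this sum, averaging 30782 in Vehicle, 200961 with the agonist, 288369 with the antibody and 236370 in Combo. Of the 10 genes, 8, 8 and 6 rose and 1, 2 and 1 fell in these comparisons. The part of the macrophage markers in the rise of *Apoe* was not tested.

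The exporters differed between the single agents in ATMs. *Abcg1* stood at 5500, 5094 and 5332 normalized counts with anti–IL-17A, 3280, 2917 and 2950 with the GLP-1R agonist, 2573, 2302 and 2662 in Combo, 2177, 2414 and 2509 in Vehicle and 1449, 1355 and 1306 in WT. Combo and Vehicle overlapped, and the other neighbours in this order did not. *Abcg1* rose 2.24-fold with the antibody (log2 fold change 1.17, SE 0.08, adjusted p = 5.42e-09 in edgeR) and Combo was 2.11-fold below the antibody (-1.08, SE 0.08, adjusted p = 4.99e-08). *Abca1* followed another order, with 6911, 7119 and 7287 counts for the agonist, 5375, 5696 and 6361 for the antibody, 4003, 4111 and 3909 in WT, 3121, 4629 and 3020 in Vehicle and 3395, 3565 and 3719 in Combo. Vehicle overlapped WT and Combo, and the other groups did not overlap. The *Abca1* difference from Vehicle was 0.99 (SE 0.12, adjusted p = 5.46e-06) for the agonist, just inside the fold limit, and it was called at 1.2 without Vehicle replicate 2 and at 1.00 without GLP-1R agonist replicate 1. It was 0.69 (SE 0.12) for the antibody and -0.01 (SE 0.12, adjusted p = 0.984) for Combo.

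The receptors that were high in Vehicle ATMs were lower after treatment. *Pparg* stood at 2304, 1897 and 1770 with the GLP-1R agonist, 2499, 2238 and 2444 with anti–IL-17A and 1670, 2010 and 1467 in Combo, all below the 3321, 4298 and 4236 of Vehicle. It fell 2.30-fold in Combo (log2 fold change -1.20, SE 0.14, adjusted p = 3.91e-06 in edgeR), and gave -0.99 (SE 0.14) for the agonist, called at -1.04 with DESeq2 and with its size factors in edgeR, at -1.05 with only the 6 libraries of both groups, at -1.10 without Vehicle replicate 1 and at -1.11 without GLP-1R agonist replicate 1, and -0.72 (SE 0.14) for the antibody. *Ppard* fell 2.93-fold with the antibody (-1.55, SE 0.36, adjusted p = 0.00175) and 2.62-fold in Combo (-1.39, SE 0.36, adjusted p = 0.00459). In the agonist group its libraries spread from 86.6 to 202, below Vehicle, with -0.79 (SE 0.35, adjusted p = 0.0734), and without replicate 2 of that group it was called at -1.06 (adjusted p = 0.0404). *Nr1h3* fell 2.16-fold with the agonist (783, 890 and 723; log2 fold change -1.11, SE 0.14, adjusted p = 9.15e-06), overlapped Vehicle with the antibody (1751, 1557 and 1342) and was lower in Combo by 0.75 on the log2 scale (SE 0.14; 1102, 930 and 1038). *Nr1h2* was lower in each treated group, with log2 fold changes of -0.45, -0.56 and -0.61. *Rxra* overlapped across all 5 groups, with means of 431 to 623.

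*Mylip* had its highest mean with the GLP-1R agonist and its lowest in Combo among ATMs. The libraries held 3292, 3499 and 3494 normalized counts with the agonist, 2577, 2385 and 2623 in WT, 1503, 2588 and 2863 in Vehicle, 1939, 2141 and 2531 with anti–IL-17A and 1866, 1575 and 1644 in Combo. The agonist libraries lay above all others, and Vehicle overlapped WT, anti–IL-17A and Combo. Combo was 2.02-fold below the agonist (log2 fold change -1.02, SE 0.17, adjusted p = 0.000225 in edgeR), a call lost with DESeq2 (-0.98), without Combo replicate 2 (-0.97) and without Combo replicate 3 (-0.99). Against Vehicle, where replicate 1 was low, *Mylip* differed by 0.57 (SE 0.17, adjusted p = 0.0118), -0.07 (SE 0.17, adjusted p = 0.747) and -0.45 (SE 0.17, adjusted p = 0.0425) for the agonist, the antibody and Combo.

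**Figure D3:**
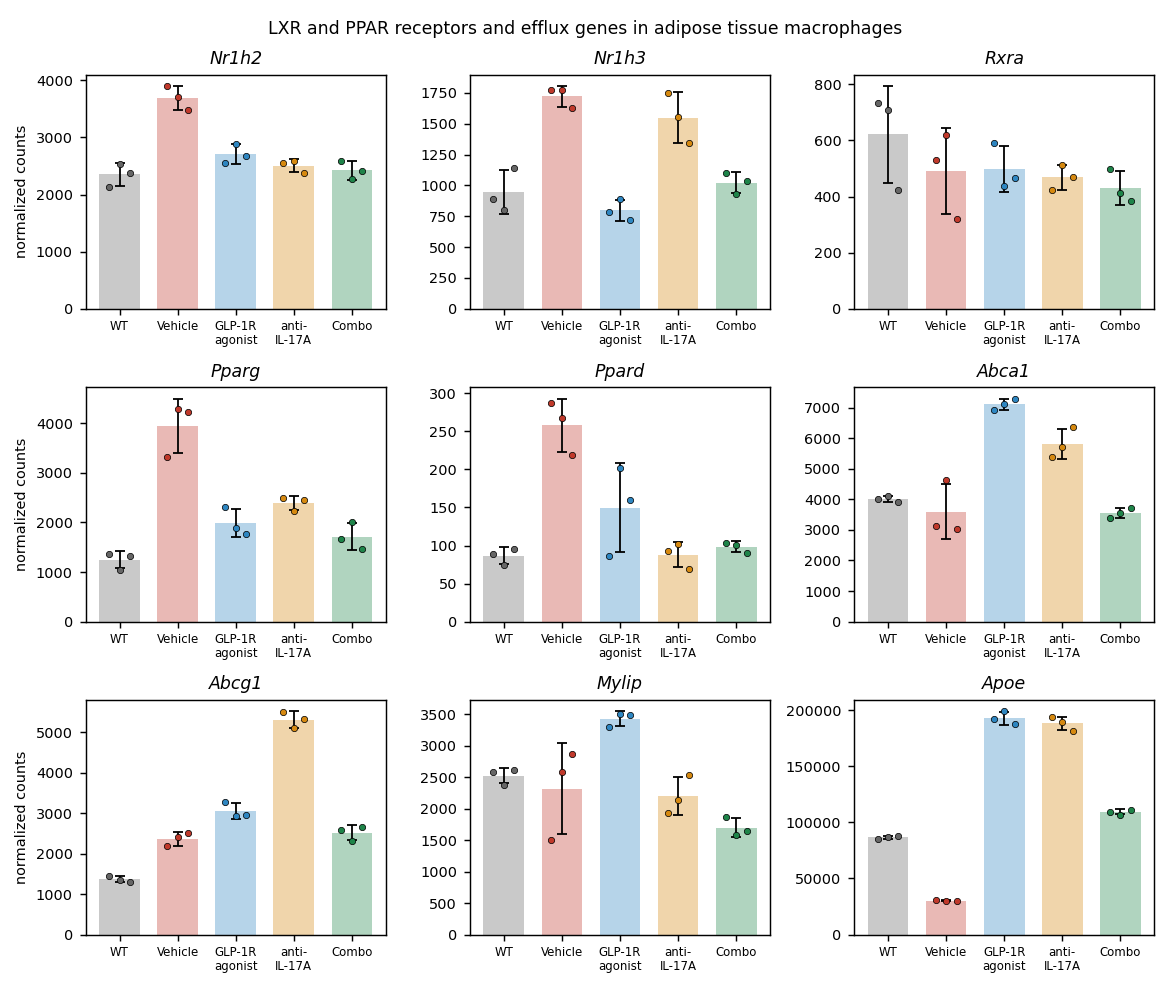
Normalized counts of the 9 members in ATM libraries by group, with bars for means, error bars for SD (n = 3) and points for libraries. *Apoe* is lowest in Vehicle (29773 to 30472) and above WT in all treated groups, and *Pparg* and *Ppard* are highest in Vehicle.

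In ATMs, 2 of 9 members were called for the agonist vs Vehicle by edgeR and 3 by DESeq2 (31.8% of all genes in edgeR), 3 for the antibody (35.5%) and 3 for Combo (26.4%), each share near the background. Against WT, Combo ATMs had 0 called members in edgeR and 0 in DESeq2 (21.6% of all genes in edgeR). In edgeR, 4 members had an unadjusted p below 0.05, and 4 passed the FDR without the fold limit, which 41.1% of all genes passed. *Abcg1* (log2 fold change 0.87, SE 0.08), *Pparg* (0.46, SE 0.14) and *Apoe* (0.33, SE 0.03) were above WT and *Mylip* (-0.58, SE 0.17) below it. *Nr1h2*, *Nr1h3* and *Ppard* overlapped between Combo and WT, with differences of 0.04 (SE 0.08), 0.12 (SE 0.14) and 0.18 (SE 0.36). Relative to the agonist 1 member was called in Combo (*Mylip*, lower, where 18.7% of all genes were called and 13.4% lower). Relative to the antibody 1 was called (*Abcg1*, lower, where 14.2% of all genes were called and 10.5% lower).

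**Figure D4:**
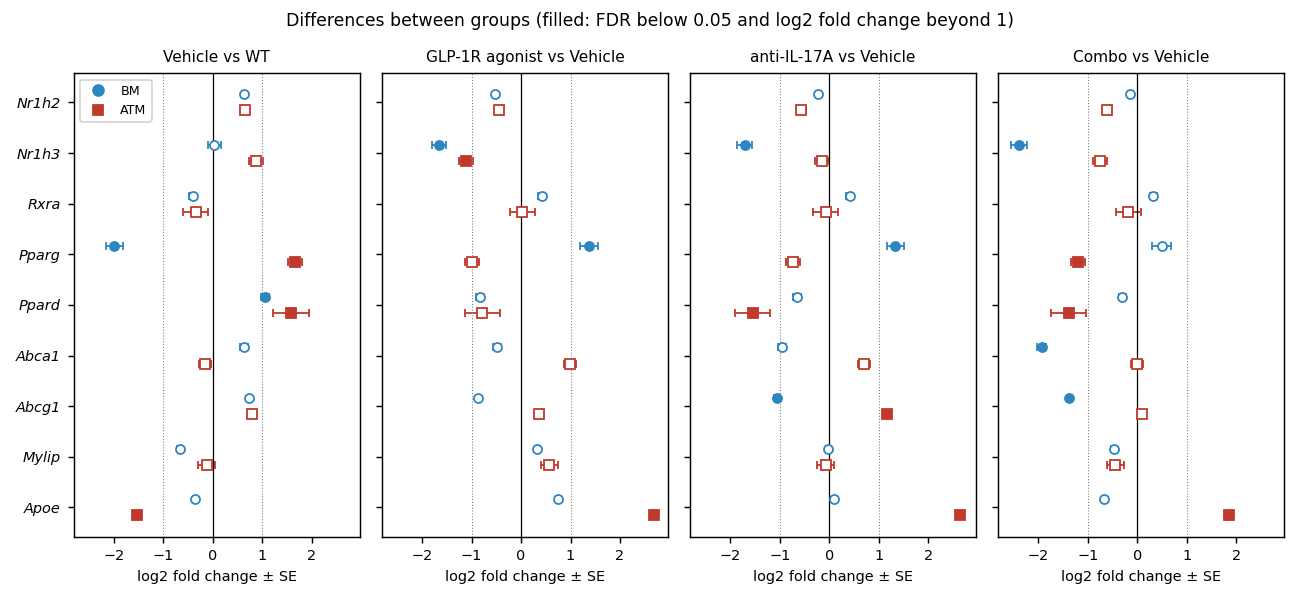
Log2 fold changes of the 9 members with standard errors for 4 comparisons, in BM (circles) and ATMs (squares), filled where called at an FDR below 0.05 and a fold change beyond 1 on the log2 scale (dotted lines). *Pparg* lies at -1.99 in BM and 1.66 in ATMs for Vehicle vs WT, and *Apoe* at -0.68 and 1.86 for Combo vs Vehicle.

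The same comparison gave different results in the 2 tissues for several members, tested as an interaction in 1 edgeR fit of the 30 libraries. For Vehicle vs WT the difference was called for 2 of 9 members, against 28.7% of the genes in both tables. *Pparg* was lower in BM and higher in ATMs, a difference of 3.65 on the log2 scale (SE 0.24, adjusted p = 5.34e-13), and *Apoe* was lower by more in ATMs (-1.17, SE 0.04, adjusted p = 4.3e-18). For Combo vs Vehicle it was called for 6 of 9 members, against 28.1% of genes. *Apoe* (2.58, SE 0.04), *Abca1* (1.96, SE 0.17), *Nr1h3* (1.67, SE 0.23) and *Abcg1* (1.5, SE 0.10) lay higher in the ATM comparison than in BM, and *Pparg* (-1.65, SE 0.25) and *Ppard* (-1.05, SE 0.27) lower. This fit used 1 estimate of spread per gene for both tissues, although ATM libraries varied more, so its SE can be too small for ATMs. BM and ATM libraries were treated as independent, and whether they came from the same mice was not checked. Differences between separate fits per tissue called the same members, with *Ppard* at -1.09 (SE 0.37). For *Nr1h3* both tissues had less in Combo than in Vehicle, and for *Abca1* and *Abcg1* the ATM effect was near 0. The tissues also differ in how cells were prepared, whole marrow against F4/80+ sorted cells.

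Other genes of the same pathways, in 4 lists of 50 genes (6 to 14 measured per list), were read beside the members. In ATMs of Vehicle vs WT, 8 of 14 measured LXR targets fell and 1 rose (22.9% of all genes fell and 12.5% rose), with a list median of -1.18 beside -0.21 over all genes. The desaturases *Scd2* (log2 fold change -3.25, SE 0.15) and *Scd1* (-2.59, SE 0.14) fell, and *Abcg8*, a sterol exporter of liver and gut, had 0 counts in the 3 Vehicle libraries and a mean of 48.6 in WT, at least 15.7-fold lower against a floor of 3 counts per library. *Apoc2*, a cofactor of lipoprotein lipase, rose from a low level (2.29, SE 0.92). Adipocyte markers, too, averaged 18511 in WT and 5850 in Vehicle by their sum, with 5 of 10 genes lower and 1 higher (median -1.51), and their part was not tested. In Combo vs Vehicle, 5 LXR targets rose and 0 fell (14.1% of all genes rose), with a list median of 1.06, or 0.70 with *Abcg8* at its bound, beside 0 over all genes. *Cd5l* (3.07, SE 0.24), *Lpl*, lipoprotein lipase (2.85, SE 0.06), and *Scd2* (1.72, SE 0.15) rose most. Beside these values the summed macrophage markers, with *Lyz2* as the largest term, averaged 1.38-fold higher in WT and 3.34-fold higher in Combo than in Vehicle. Of the 10 genes, 4 fell and 3 rose in Vehicle vs WT, and 6 rose and 1 fell in Combo vs Vehicle. Their part was not tested.

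PPAR targets in ATMs went in both directions. In Vehicle vs WT, 5 of 13 rose and 5 fell. *Plin2*, which coats lipid droplets, rose 2.90 on the log2 scale (SE 0.03), *Angptl4*, an inhibitor of lipoprotein lipase, 2.43 (SE 0.05) and *Fabp4*, a fatty acid carrier, 2.01 (SE 0.03). *Acsl1*, which activates fatty acids, changed by -1.62 (SE 0.11) and *Acaa2*, of mitochondrial β-oxidation, by -1.60 (SE 0.09). In Combo vs Vehicle 2 rose, among them *Acaa2* (1.59, SE 0.09), and 3 fell (*Pdk4* -2.41, SE 0.15; *Angptl4* -2.39, SE 0.05; *Fabp4* -1.88, SE 0.03; 12.2% of all genes fell). The list medians were 0.48 and -0.10. Among sterol uptake, storage and oxysterol genes, 5 of 13 rose and 2 fell in Vehicle, with *Ch25h*, which makes 25-hydroxycholesterol, at 3.65 (SE 0.20), *Lrp8* at 2.12 (SE 0.86), *Cyp27a1*, which makes 27-hydroxycholesterol, at -3.43 (SE 0.16) and *Abca7* at -1.07 (SE 0.27). In Combo vs Vehicle 5 rose, led by lysosomal acid lipase *Lipa* (2.38, SE 0.05), *Cyp27a1* (1.84, SE 0.15) and *Abca7* (1.79, SE 0.27), and 3 fell, *Ch25h* (-4.30, SE 0.20), *Npc2* (-1.26, SE 0.05) and *Vldlr* (-1.02, SE 0.18). Of 9 receptor partners and cofactors, *Ppargc1a* (-4.38, SE 1.12) and *Ppara* (-2.07, SE 0.61) fell in Vehicle vs WT, and *Ppargc1a* alone was called in Combo vs Vehicle (3.13, SE 1.09), at low counts.

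In BM fewer pathway genes were called. In Vehicle vs WT, 1 of 13 LXR targets rose (*Mertk*, a receptor for apoptotic cells, 1.35, SE 0.11) and 1 fell (*Cd5l* -1.53, SE 0.06), while 9.44% of all genes rose and 10% fell. Of 13 PPAR targets, *Pdk4* (2.75, SE 0.47) and *Plin2* (1.77, SE 0.04) rose and the scavenger receptor *Cd36* (-2.20, SE 0.08) and *Fabp4* (-1.90, SE 0.09) fell. Of 12 sterol genes, *Vldlr* (2.66, SE 0.37), the scavenger receptor *Msr1* (2.00, SE 0.08) and *Lrp8* (1.67, SE 0.05) rose and *Cyp27a1* fell (-1.41, SE 0.14), and of 6 partners and cofactors *Ppargc1b* rose (1.44, SE 0.18). In Combo vs Vehicle, *Mertk* (-2.55, SE 0.12), *Scd1* (-2.04, SE 0.05), *Pdk4* (-2.91, SE 0.49), *Plin2* (-1.42, SE 0.04), *Msr1* (-2.79, SE 0.08) and *Npc2* (-1.52, SE 0.02) fell. Of the LXR targets and the PPAR targets 0 rose in this comparison, where 6.58% of all genes rose. The list medians in Combo vs Vehicle were -0.20 for LXR targets, -0.24 for PPAR targets, -0.06 for sterol genes and 0.25 for partners and cofactors.

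The genes whose pattern over the 15 libraries was most like a member's were found by the root mean square (RMS) difference of log2 values centred on their mean, among 11390 genes in BM and 13922 in ATMs with a mean of at least 50 counts. For ATM *Apoe* they were *Sepp1*, with an RMS difference of 0.078 beside a spread of 0.978 for *Apoe* itself, *Tmem97* (0.206) and *Hexa* (0.232). For ATM *Abcg1* they were *Prdx1* (0.148), *P2rx4* and *Ifi30*, for *Abca1* *Il11ra1* (0.157), *Tgfbr1* and *Adam9*, and for *Mylip* *Cand1* (0.167), *Pi4k2b* and *Nmt2*. Among the ATM receptors, *Nr1h3* was nearest to *Ehd4* (0.143), *Slirp* and *Stard3*, *Pparg* to *Hmox2* (0.174), *Npc2* and *Plekho2*, and *Ppard* to *Relb* (0.256), *Hic2* and *Nfkbib*. In BM, *Nr1h3* was nearest to *Slamf9* (0.218), *Il18* and *Gimap7*, *Pparg* to *Fcgrt* (0.224), *Mturn* and *Jchain*, and *Ppard* to *Pgs1* (0.0996) and *Tpi1*. BM *Abca1* was nearest to *Axl* (0.136), *Mllt6* and *Kbtbd11*, *Abcg1* to *Nmral1* (0.103), *Ccnl1* and *Thy1*, *Mylip* to *Tex30* (0.104), *Klhl24* and *Arhgap12*, and *Apoe* to *Cd4* (0.112), *Blvrb* and *Oaf*. *Nr1h2* and *Rxra* varied by less than 1 on the log2 scale between groups and are not listed. All values rest on the same libraries and cell mixtures.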

How the data were processed

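RNA-seq was done on 15 BM and 15 ATM libraries. According to the study's methods, alignment by the authors was to mm10 (STAR 2.7.2a), and featureCounts 2.0.1 then assigned reads of mapping quality 10 or more to GENCODE genes, unstranded. A read on overlapping genes counted for every one of them. The deposited values are raw counts per gene, and genes with few reads are absent from the tables (the smallest gene totals are 55 in BM and 54 in ATMs, by a filter not given in the sources used here).

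Each tissue was fitted as a whole with edgeR 4.0.16 in R 4.3.3 (TMM scaling, robust quasi-likelihood test, Benjamini-Hochberg adjustment over all genes, 5 groups without a replicate block). A gene was called at an FDR below 0.05 with a log2 fold change beyond 1. Normalized counts were scaled to the tissue's mean effective library size. RPKM used exon lengths of GENCODE M21, the annotation at hand. The tissue difference was an interaction term in 1 fit of both tissues. DESeq2 1.42.0, other scalings, filters, sample sets and leaving out each library were alternatives, and the scripts were tested on simulated data. Members and gene lists were chosen with earlier results of these data known. The text names all 9 members, up to 3 called genes per list and direction for Vehicle vs WT and Combo vs Vehicle, and the 3 most alike genes of members whose group means span more than 1 on the log2 scale. Some genes that this rule names are not reported here. The labels name 1 batch, and p-values measure the spread between these libraries, which may be technical.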

Additional observations from a re-analysis of the deposited data

Results flagged for a closer look

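Effects of the same comparison differed between ATMs and BM for 8 results, by the interaction term of an edgeR fit of all 30 libraries. The values are the log2 effect in ATMs minus that in BM. For Vehicle vs WT they were 3.65 for *Pparg* and -1.17 for *Apoe*. For Combo vs Vehicle they were 1.67 for *Nr1h3*, -1.65 for *Pparg*, -1.05 for *Ppard*, 1.96 for *Abca1*, 1.5 for *Abcg1* and 2.58 for *Apoe*. The differences for *Pparg* in both comparisons and for *Apoe* and *Abcg1* in Combo vs Vehicle lie between effects of opposite sign. The *Abcg1* effect in ATMs was near 0 (0.09, SE 0.08). The *Pparg* effect of Combo in BM (0.49, SE 0.20) missed the FDR without Vehicle replicate 2, Combo replicate 1 or Combo replicate 3. Cell preparation differs with tissue, and its part was not tested.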

How the results depend on the processing

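Of 2646 alternative values of 126 single-gene results, 2580 kept their direction and their side of the FDR threshold, 26 lost significance, 18 gained it and 22 changed sign, the last all in results with an adjusted p of at least 0.05. With no fold limit, the members called in BM were 8 for Vehicle vs WT, 9, 8 and 9 for the agonist, the antibody and Combo vs Vehicle, and 8, 8 and 7 for Combo vs WT, the agonist and the antibody. Of all genes in BM, 76.6%, 72.8%, 73%, 73.8%, 73.3%, 71.4% and 52.5% passed in the same order. In ATMs the member counts were 6, 7, 6, 6, 4, 4 and 5. Of all genes in ATMs, 56.9%, 53.8%, 58.1%, 48.7%, 41.1%, 39.8% and 28.6% passed. The single call of ATM Combo vs agonist (*Mylip*) became 0 with DESeq2 size factors, with DESeq2, with at least 10 counts in every library and with only the 6 libraries of both groups, and BM Combo vs antibody went from 0 to 1 with only those 6. The cause was not tested.

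Leaving out 1 library gave 1 to 2 called members for BM Vehicle vs WT (1 without WT replicate 1), 2 to 2 for the agonist, 3 to 4 for the antibody (*Abca1* -1.04 without Vehicle replicate 3) and 3 to 3 for Combo vs Vehicle, and 5 to 5, 2 to 3 (*Pparg* -1.02 without Combo replicate 3) and 0 to 1 (1 without Vehicle replicate 3 or Combo replicate 3) for Combo vs WT, the agonist and the antibody. In ATMs it gave 3 to 4 for Vehicle vs WT, 2 to 4 for the agonist (4 without GLP-1R agonist replicate 1), 3 to 3 and 3 to 3 for the antibody and Combo, and 0 to 0, 0 to 2 (0 without Combo replicate 2, 2 without GLP-1R agonist replicate 1, with *Abca1* at -1.02) and 1 to 1 for Combo vs WT, the agonist and the antibody. The tissue difference gave 2 to 2 and 5 to 6.

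Signs changed for ATM *Rxra*, agonist vs Vehicle (-0.0279 with size factors, -0.0279 with DESeq2, -0.0362 with 6 libraries), and ATM *Abca1*, Combo vs Vehicle (0.0139 with at least 10 counts, 0.00187 with 6 libraries). Without single libraries they ranged across 0 for ATM *Abca1* Combo vs Vehicle (-0.125 to 0.214, the latter without Vehicle replicate 2), *Mylip* Vehicle vs WT (-0.313 to 0.0991) and antibody vs Vehicle (-0.313 to 0.0995), *Nr1h2* Combo vs WT (-0.0227 to 0.103), *Rxra* vs Vehicle in Combo (-0.419 to 0.0202), the agonist (-0.212 to 0.219) and the antibody (-0.308 to 0.14), and for BM *Mylip* antibody vs Vehicle (-0.0793 to 0.0658) and *Nr1h3* Vehicle vs WT (-0.109 to 0.164).

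Within a tissue, replicate numbers showed little pairing of groups, as deviations of same-numbered libraries correlated at -0.068 to 0.142 in BM and -0.039 to 0.034 in ATMs. Whether BM and ATM libraries of the same group and number came from the same mouse was not checked. With the replicate block the called members numbered 2, 2, 3, 3, 5, 2 and 0 in BM, 3, 2, 3, 3, 0, 1 and 1 in ATMs, and 2 and 6 for the tissue difference, as without it.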
